A study of Mus musculus with 8 samples.

Results

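The 34 genes described here serve the Nrf2 antioxidant system and the supply of NADPH, and were listed by name out of the 46078 genes of the count table. They fall into 6 roles: 7 glutathione genes, 7 thioredoxin and peroxiredoxin genes, 5 genes of the pentose phosphate pathway and NADPH supply, 6 regulators, 6 other Nrf2 targets, and catalase with 2 superoxide dismutases. All 34 had at least 3 counts in each of the 8 libraries and passed the low-count filter in all 6 comparisons. RNA-Seq was run on BV-2 cells, an immortalized mouse microglial line used at passages 5 to 6, with 2 libraries in each of 4 groups. Control cells were not exposed to LPS, AGE or FruArg. The LPS group was exposed to lipopolysaccharide, a bacterial cell wall component that activates microglia, at 100 ng/mL for 20 h. The AGE+LPS group also received aged garlic extract at 0.5% (v/v), and the FruArg+LPS group received synthesized FruArg, which occurs in that extract as an Amadori product of arginine with glucose, at 3 mM, both from 1 h before LPS. All cells had been kept without serum for 4 h. No group received AGE or FruArg without LPS, so the effect of either compound alone was not measured. Replicate 1 of each group was sequenced in lane 3 and replicate 2 in lane 6, and the values of a group are given in that order throughout.

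Nrf2, encoded by Nfe2l2, is a transcription factor that Keap1 holds in the cytoplasm and hands over for degradation. When cysteines of Keap1 are modified by oxidants or electrophiles, Nrf2 accumulates, pairs with small Maf proteins and binds antioxidant response elements near genes for glutathione synthesis, thioredoxin reduction, NADPH supply and detoxification, while Bach1 competes for the same elements. In microglia, which make superoxide and nitric oxide on activation, these enzymes remove peroxides at the cost of NADPH.

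Total counts ranged from 2707500 (control, replicate 1) to 12069807 (LPS, replicate 2). Levels are given as counts per 1000000 after TMM scaling (CPM), in which 3 counts stood for 0.276 to 0.935 CPM. The cells carried macrophage and microglial markers: the 8 genes of that list summed to 2833 and 3514.5 CPM in the control, 2326 and 2671 CPM with LPS, 2026 and 2413 CPM with AGE+LPS, and 2691 and 2859.6 CPM with FruArg+LPS. C1qa was the lowest of them, with 3 to 154 counts. Markers of resting brain microglia were close to absent. P2ry12, Tmem119, Cx3cr1 and Sall1 together reached 9.98 and 13.7 CPM in the control and at most 2.13 CPM in the other groups, and Sall1 had 0 counts in every library. Neuron markers had 0 counts. Of the 3 astrocyte markers only Slc1a2 passed 10 counts, in 1 library, and none of the 3 oligodendrocyte, 3 fibroblast and 3 T cell markers exceeded 10 counts in any library. The LPS treatment itself was visible in all 6 genes of an inflammatory check list, which were called up in LPS against control. Nos2, the inducible nitric oxide synthase, was at 2.18 and 0.657 CPM in the control libraries, 759.6 and 809.6 CPM with LPS, 134 and 123 CPM with AGE+LPS and 146 and 324 CPM with FruArg+LPS.

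LPS raised most of the glutathione and thioredoxin genes of the list. Of the 34 members, 18 were called up in LPS against control, beside 11.5% of the 12888 genes tested, and 1 was called down, beside 11.1% of the genes tested. A gene was called when its absolute log2 fold change was at least 1 and its adjusted p was below 0.05. The median log2 fold change was 1.09 over the 34 members and 0.0197 over all genes tested. The list was chosen with earlier results of these data known. Its excess over all genes, here and in the other comparisons, is therefore no independent test. Together the members took 0.672% and 0.790% of all counts in the control, 2.09% and 2.19% with LPS, 2.29% and 2.62% with AGE+LPS, and 3.10% and 3.15% with FruArg+LPS. In bulk samples, fewer cells of a kind and less RNA per cell cannot be told apart. Prdx1, Sqstm1, Srxn1, Slc7a11 and Sod2 held 38.6% and 39.8% of the members' counts in the control and at least 66.9% in each library with LPS.

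With AGE+LPS against control, edgeR called 20 members up, beside 7.64% of the 12449 genes tested, and 0 down, beside 7.41%. At an unadjusted p below 0.05 there were 23 members in either direction, beside 31.6% of the genes tested, and DESeq2 called 20 up and 0 down. With FruArg+LPS against control, edgeR called 21 members up, beside 9.59% of the 12038 genes tested, and 0 down, beside 7.84%. Here 26 members had an unadjusted p below 0.05, beside 35.8% of genes, and DESeq2 called 21 up and 0 down. The median log2 fold change of the members was 1.09 and 1.63 in these comparisons, against 0.0133 and 0.00203 over all genes tested. With the replicate (lane) as a block and no minimum on the fold change, a setting chosen after seeing the data, 27 members passed up and 2 down with LPS, beside 24.9% and 22.9% of genes. With AGE+LPS 24 passed up and 2 down, beside 20.2% and 18.5%, those down being Ephx1 and Gpx1 in each, and with FruArg+LPS 26 up and 0 down, beside 18.9% and 15.5%. The 3 comparisons with control share the same 2 control libraries. When libraries were scaled by size alone, the median of all genes fell by 0.42 in LPS against control, fell by 0.25 in AGE+LPS against control and fell by 0.40 in FruArg+LPS against control, so every fold change here is relative to the scaling. Under it 16, 15 and 19 members were called up in LPS, AGE+LPS and FruArg+LPS, and the share of up-regulated genes among all called genes went from 50.9% to 25.9%, from 50.8% to 33.0% and from 55.0% to 26.8%. The members that lost their call were Taldo1 and Mafg with LPS, Gclc, Gss, G6pdx, Pgd and Taldo1 with AGE+LPS, and G6pdx and Mafg with FruArg+LPS.

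**Figure D1:**
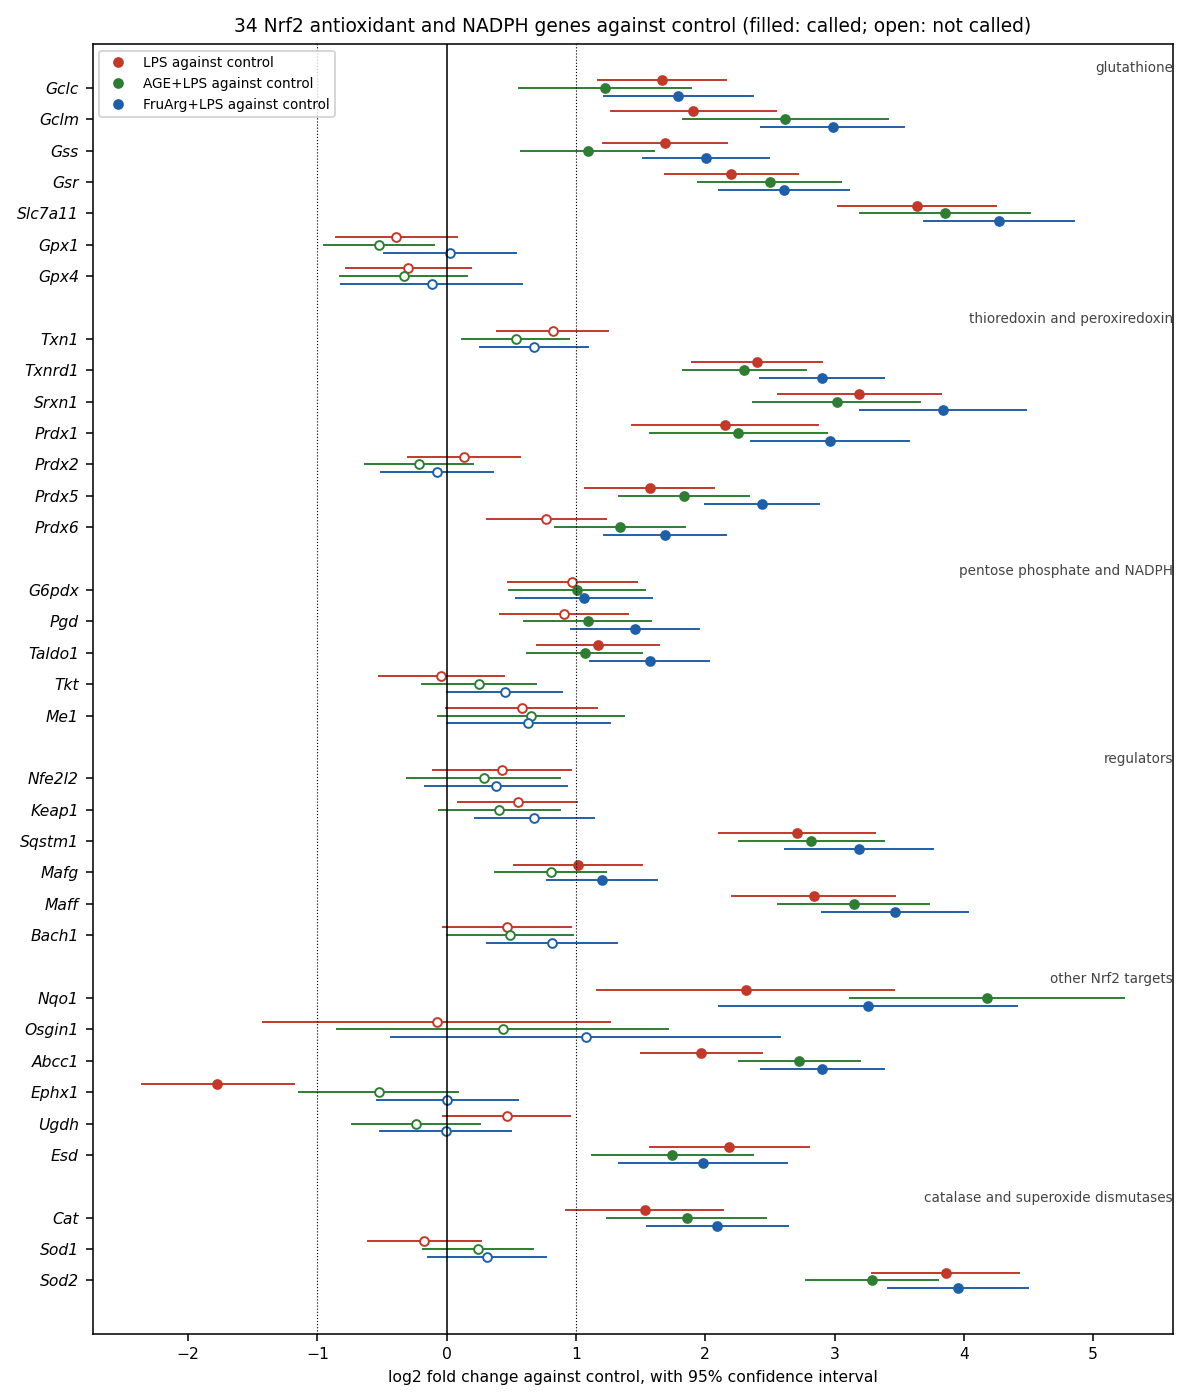
Log2 fold change against control (horizontal axis, with 95% confidence interval) of the 34 members, grouped by role, for LPS (red), AGE+LPS (green) and FruArg+LPS (blue), with filled points for called genes and dotted lines at the minimum fold change. Most synthesis, recycling and peroxiredoxin genes lie to the right in all 3 comparisons, and Ephx1 lies to the left after LPS alone, at -1.77.

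Compared per kb of exon, Prdx1 and Sqstm1 held the first and second places in all 8 libraries, in either order. Their mean levels were 326 and 264 CPM per kb in the control and 1416 and 1683 CPM per kb with LPS. Gpx1 was in place 3 in both control libraries, at a mean of 253 CPM per kb, and Srxn1 held that place in the 6 libraries with LPS, at 842 CPM per kb in the LPS group. Slc7a11 moved from place 26 and 25 in the control libraries to 12 and 10 with LPS, and Sod2 from 24 and 22 to 8 and 8. Osgin1 and Nqo1 were the lowest in the control, at 0.947 and 0.694 CPM per kb.

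Of the 7 glutathione genes, 5 were called up in each comparison with control, those for supply and recycling. Beside them, 11.5%, 7.64% and 9.59% of all genes tested were called up in LPS, AGE+LPS and FruArg+LPS against control. The median log2 fold change of the 7 genes was 1.69 with LPS, 1.23 with AGE+LPS and 2.01 with FruArg+LPS. Slc7a11 (chr3:49892526-50443614 on the minus strand) encodes the cystine importer that feeds cysteine to glutathione synthesis. Its level was 124 and 153 CPM in the control libraries, 1433 and 1941 CPM with LPS, 1565 and 2421 CPM with AGE+LPS and 2392 and 2884 CPM with FruArg+LPS. The log2 fold change was 3.64 (SE 0.27, adjusted p = 3.2e-05) in LPS against control, which is 12.4-fold. All 6 libraries with LPS stood far above both controls, and the AGE+LPS and FruArg+LPS libraries overlapped.

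Gclc and Gclm encode the catalytic and modifier subunits of glutamate-cysteine ligase, the rate-limiting enzyme of glutathione synthesis. Gclc was at 54.0 and 59.2 CPM in the control, 151 and 200.5 CPM in the LPS group, 89.3 and 173 CPM in the AGE+LPS group and 150.0 and 235 CPM in the FruArg+LPS group. Gclm was at 29.9 and 45.4 CPM in control cells, 109 and 170.4 CPM after LPS, 152 and 313 CPM after AGE+LPS and 288 and 307 CPM after FruArg+LPS. Both subunits were above the controls in every library with LPS, but they parted in the co-treatments: the AGE+LPS library of lane 3 was the lowest of the treated libraries for Gclc, while for Gclm the co-treated library of lane 6 with AGE and both with FruArg were the highest. The log2 fold changes in LPS, AGE+LPS and FruArg+LPS against control were 1.67, 1.23 and 1.79 for Gclc, all called. For Gclm they were 1.91, 2.62 and 2.99, all called, with adjusted p of 0.001, 0.0011 and 0.00019. Without replicate 2 of AGE+LPS the log2 fold change of Gclc in that group was 0.68 and was no longer called.

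Gss, the synthetase that adds glycine, was at 22.1 and 23.8 CPM in the control libraries, 74.0 and 71.4 CPM with LPS, 42.9 and 54.3 CPM with AGE+LPS and 93.0 and 89.1 CPM with FruArg+LPS. Gsr, the reductase that restores glutathione with NADPH, was at 44.3 and 59.5 CPM in the control, 214 and 256 CPM in the LPS group, 244 and 340.1 CPM in the AGE+LPS group and 301 and 325 CPM in the FruArg+LPS group. The AGE+LPS libraries were the lowest of the treated ones for Gss, whereas for Gsr they overlapped with those of FruArg+LPS. Against control, Gss changed by 1.69, 1.09 and 2.01 and Gsr by 2.20, 2.50 and 2.61 on the log2 scale in LPS, AGE+LPS and FruArg+LPS, all called. The Gss call with AGE+LPS did not hold when either control library or replicate 2 of AGE+LPS was left out, with log2 fold changes of 1.05, 1.15 and 0.92. The glutathione peroxidases Gpx1, at 241 to 428 CPM over the 8 libraries, and Gpx4, at 33.5 to 62.7 CPM, were not called in any comparison. Their log2 fold changes in LPS against control were -0.39 ± 0.21 and -0.30 ± 0.21 (SE). With the block Gpx1 was lower by a size below the fold minimum, at -0.40 (SE 0.15, adjusted p = 0.031), with adjusted p over the alternatives of 0.015 to 0.62.

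Of the 7 thioredoxin and peroxiredoxin genes, 4 were called up with LPS and 5 with each co-treatment against control. The shares of all genes called up were 11.5% with LPS, 7.64% with AGE+LPS and 9.59% with FruArg+LPS. In the same order, the median log2 fold change of the 7 genes was 1.57, 1.83 and 2.44. Srxn1 (chr2:152105516-152111376 on the plus strand) encodes sulfiredoxin, which restores overoxidized peroxiredoxins, and was at 214 and 318 CPM in control cells, 2522 and 2228 CPM after LPS, 1780.3 and 2486 CPM after AGE+LPS and 3533 and 3947 CPM after FruArg+LPS. Txnrd1, the cytosolic thioredoxin reductase that passes electrons from NADPH, was at 173 and 179.7 CPM in the control libraries, 983 and 832 CPM with LPS, 778 and 941 CPM with AGE+LPS and 1223 and 1361 CPM with FruArg+LPS. The control and LPS-exposed libraries were far apart for both genes, and the FruArg+LPS pair was the highest for each. The changes in LPS against control were 3.19 (SE 0.28, adjusted p = 6.5e-05) for Srxn1 and 2.40 (SE 0.22, adjusted p = 8.4e-05) for Txnrd1. In AGE+LPS and FruArg+LPS against control they were 3.02 and 3.84 for Srxn1, and 2.30 and 2.90 for Txnrd1, all called. Thioredoxin itself, Txn1, stayed within 142 to 258 CPM, and its log2 fold change with LPS of 0.82 (SE 0.19, adjusted p = 0.011) passed the p threshold but not the fold minimum.

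The peroxiredoxins reduce peroxides with electrons from thioredoxin. Prdx1 was at 855 and 1132 CPM in the control, 3216 and 5399 CPM in the LPS group, 3550.3 and 5808 CPM in the AGE+LPS group and 8495 and 6734 CPM in the FruArg+LPS group. Lane 3 was below lane 6 in the first 3 groups and above it with FruArg+LPS, and both FruArg+LPS libraries exceeded all others. Prdx5, located in mitochondria, peroxisomes and cytosol, was at 112 and 116 CPM in the control libraries, 382 and 279.7 CPM with LPS, 464 and 337 CPM with AGE+LPS and 601 and 611 CPM with FruArg+LPS. Prdx6, which uses glutathione, was at 183 and 220.3 CPM in control cells, 317 and 355 CPM after LPS, 429 and 581 CPM after AGE+LPS and 683 and 595 CPM after FruArg+LPS. For Prdx5 and Prdx6 both FruArg+LPS libraries again lay above all others. Prdx1 and Prdx5 were called in LPS against control, at 2.15 and 1.57, and Prdx6, at 0.77 ± 0.20 (SE), fell short of the fold minimum. With AGE+LPS against control the 3 genes changed by 2.25, 1.83 and 1.34, and with FruArg+LPS by 2.96, 2.44 and 1.69, all called. Prdx2 stayed within 188 to 241 CPM and was not called, at 0.13 ± 0.19 (SE) in LPS against control, a sign that turned under scaling by library size, to -0.29.

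**Figure D2:**
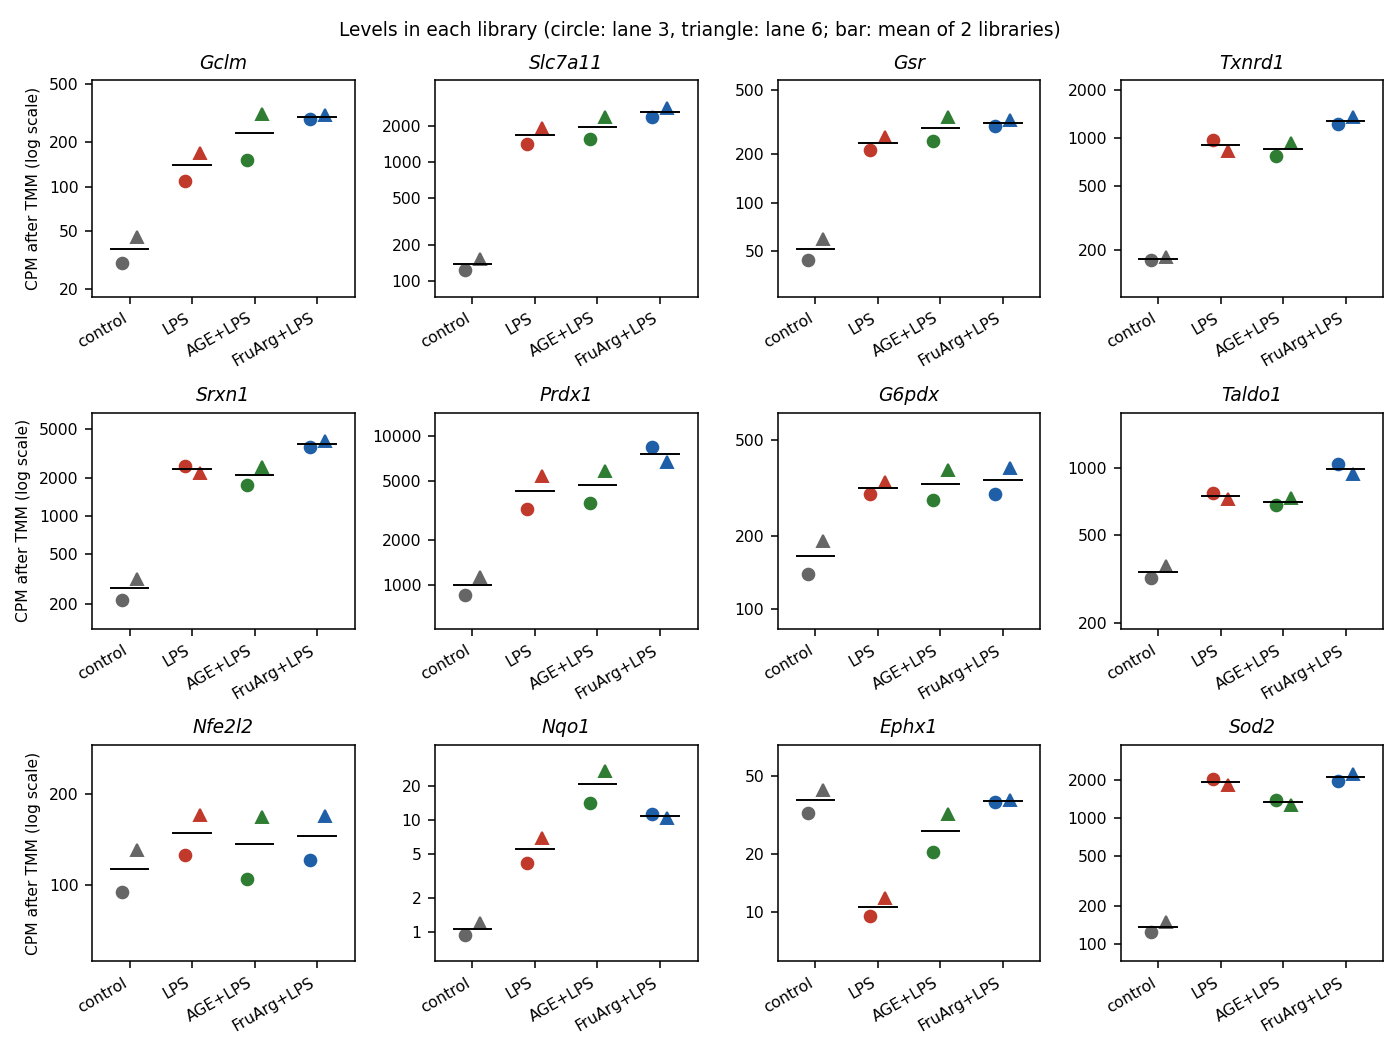
Levels (vertical axis, CPM after TMM scaling, log scale) of 12 members in each library of the 4 groups, with circles for lane 3, triangles for lane 6 and a bar at the mean of the 2 libraries. Slc7a11, Srxn1 and Sod2 are well above the control in all 6 libraries with LPS, and Nfe2l2 overlaps between groups. Ephx1 is lowest in the LPS group, at 9.52 and 11.9 CPM, and is below both controls with AGE+LPS too.

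Of the 5 pentose phosphate and NADPH genes, 1 was called up with LPS and 3 with each co-treatment against control. In LPS, AGE+LPS and FruArg+LPS, 11.5%, 7.64% and 9.59% of all genes tested were called up. The median log2 fold change of the 5 genes was 0.91, 1.01 and 1.07. Scaling by library size left 0, 0 and 2 of them called up, beside 932, 683 and 708 genes in all. G6pdx (chrX:74409483-74429194 on the minus strand), the entry enzyme of the oxidative branch, was at 139.7 and 191 CPM in the control libraries, 299.5 and 334 CPM with LPS, 282 and 377 CPM with AGE+LPS and 298 and 383 CPM with FruArg+LPS. Pgd, the second NADPH-producing step, was at 98.8 and 137 CPM in the control, 206 and 226 CPM in the LPS group, 231 and 268 CPM in the AGE+LPS group and 313 and 324 CPM in the FruArg+LPS group. Both control libraries lay below all treated ones for each gene, yet the distance was close to the fold minimum. In LPS against control the log2 fold change was 0.97 (SE 0.22, adjusted p = 0.0092) for G6pdx and 0.91 (SE 0.22, adjusted p = 0.012) for Pgd, neither called. Leaving out control replicate 2 made both pass, at 1.21 and 1.16, leaving out LPS replicate 1 made G6pdx pass, at 1.05, and so did keeping genes with at least 1 count, at 1.00. With AGE+LPS and FruArg+LPS against control both were called, at 1.01 and 1.06 for G6pdx and 1.09 and 1.46 for Pgd. The calls against control of G6pdx in both and of Pgd with AGE+LPS were also fragile. Without control replicate 1, the log2 fold change of G6pdx was 0.81 with AGE+LPS and 0.84 with FruArg+LPS, and that of Pgd 0.89 with AGE+LPS. Without the second co-treated library the same values were 0.79, 0.87 and 0.99, and none of these was called. With all 8 libraries in 1 fit G6pdx with AGE+LPS was 0.99, below the fold minimum.

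Taldo1, the transaldolase of the non-oxidative branch, was at 319.9 and 364 CPM in control cells, 774 and 726 CPM after LPS, 681 and 735 CPM after AGE+LPS and 1049 and 944 CPM after FruArg+LPS. It was called in all 3 comparisons with control, at 1.17 (SE 0.21, adjusted p = 0.0027) for LPS, 1.07 for AGE+LPS and 1.57 for FruArg+LPS. The AGE+LPS call was lost without either control library, at 0.98 and 1.16, and the LPS call was lost when libraries were scaled by size alone, at 0.75. Me1, the cytosolic malic enzyme that makes NADPH from malate, was low, at 18.1 and 28.0 CPM in the control libraries, 32.6 and 35.8 CPM with LPS, 26.4 and 46.6 CPM with AGE+LPS and 33.5 and 37.7 CPM with FruArg+LPS. Its control and treated libraries did not overlap except for the AGE+LPS library of lane 3, and no comparison called it, with 0.58 ± 0.26 (SE) for LPS. Tkt, the transketolase of the non-oxidative branch, was within 519.9 to 849.7 CPM and was not called, at -0.04 ± 0.21 (SE) for LPS. That value had the opposite sign without control replicate 2 or LPS replicate 2, at 0.02 and 0.09.

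Of the 6 regulators, 3, 2 and 3 were called up in LPS, AGE+LPS and FruArg+LPS against control, beside 11.5%, 7.64% and 9.59% of genes. The transcript of Nrf2 itself was not called in any comparison. Nfe2l2 was at 95.1 and 130.2 CPM in the control, 126 and 171 CPM in the LPS group, 104 and 168 CPM in the AGE+LPS group and 121 and 168 CPM in the FruArg+LPS group. Keap1, the adaptor that targets Nrf2 for degradation, was at 43.3 and 45.9 CPM in control cells, 67.6 and 60.1 CPM after LPS, 63.8 and 53.3 CPM after AGE+LPS and 69.1 and 71.2 CPM after FruArg+LPS. The groups overlapped for Nfe2l2, and for Keap1 every treated library was above both controls by a small margin. Their log2 fold changes in LPS against control were 0.43 (SE 0.24, adjusted p = 0.21) and 0.55 (SE 0.20, adjusted p = 0.07). With the replicate block they were 0.43 (SE 0.15, adjusted p = 0.021) and 0.54 (SE 0.17, adjusted p = 0.0084), below the fold minimum but past the p threshold, with adjusted p over the alternatives of 0.02 to 0.99 and 0.0084 to 0.66. Under TMM scaling, the log2 ratio of Nfe2l2 to control was 0.40 in lane 3 and 0.39 in lane 6 with LPS. With AGE+LPS it was 0.14 in lane 3 and 0.37 in lane 6, and with FruArg+LPS 0.35 and 0.37. The transcript was thus higher than control within both lanes under that scaling, which other scalings need not share. The 95% interval for Nfe2l2 with LPS ran from -0.10 to 0.96 without the block, and under scaling by library size the value was 0.0034. Without LPS replicate 1 its adjusted p passed too, at 0.63 on the log2 scale. Protein was not measured.

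Sqstm1 encodes p62, which binds Keap1 and draws it into autophagy, and was at 872 and 900.3 CPM in the control libraries, 6059 and 5235 CPM with LPS, 6568 and 5771 CPM with AGE+LPS and 7112 and 8767 CPM with FruArg+LPS. Maff and Mafg encode small Maf partners of Nrf2. Maff was at 14.3 and 12.5 CPM in the control, 113 and 72.5 CPM in the LPS group, 136 and 96.2 CPM in the AGE+LPS group and 164 and 124 CPM in the FruArg+LPS group. Mafg was at 88.9 and 79.8 CPM in control cells, 192 and 141 CPM after LPS, 149 and 141 CPM after AGE+LPS and 188 and 193 CPM after FruArg+LPS. All 3 genes were higher in every library with LPS than in either control, by several fold for Sqstm1 and Maff. In LPS, AGE+LPS and FruArg+LPS against control, Sqstm1 changed by 2.71, 2.82 and 3.19 and Maff by 2.84, 3.15 and 3.46, all called. For Mafg the values were 1.02, 0.80 and 1.21, called with LPS and FruArg+LPS. The Mafg call with LPS sat at the fold minimum: with the replicate block it was 0.99 (SE 0.16, adjusted p = 3.1e-06), without control replicate 2 it was 0.93 and without LPS replicate 1 it was 0.78, below the fold minimum in each, with adjusted p over all alternatives of 3.1e-06 to 0.081. Bach1, the repressor at antioxidant response elements, was within 85.6 to 187 CPM and was not called, at 0.47 ± 0.22 (SE) with LPS.

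The other Nrf2 targets held the one member called down with LPS. Ephx1 (chr1:180976210-181020904 on the minus strand), the microsomal epoxide hydrolase, was at 32.4 and 42.4 CPM in the control libraries, 9.52 and 11.9 CPM with LPS, 20.3 and 31.7 CPM with AGE+LPS and 36.7 and 37.5 CPM with FruArg+LPS. Both LPS libraries were below the 6 others, and both AGE+LPS libraries were below both controls. The FruArg+LPS libraries lay within the range of the controls. Ephx1 changed by -1.77 (SE 0.26, adjusted p = 0.00099) in LPS against control, which is 3.42-fold lower, and the log2 fold change was -0.52 ± 0.27 and 0.01 ± 0.24 (SE) with AGE+LPS and FruArg+LPS, neither called. The 95% interval for FruArg+LPS against control was -0.54 to 0.55.

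Nqo1 (chr8:107388225-107403206 on the minus strand), the NADPH-using quinone reductase often read as an Nrf2 marker, was low in this line. It was at 0.935 and 1.22 CPM in the control, 4.13 and 6.82 CPM in the LPS group, 14.2 and 27.2 CPM in the AGE+LPS group and 11.2 and 10.3 CPM in the FruArg+LPS group. The control values rest on 3 and 13 counts. Every treated library was above the controls and both AGE+LPS libraries were the highest. Nqo1 changed by 2.31 (SE 0.51, adjusted p = 0.0081) with LPS, 4.18 (SE 0.47, adjusted p = 0.00043) with AGE+LPS and 3.26 (SE 0.50, adjusted p = 0.003) with FruArg+LPS against control.

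Abcc1, an exporter of glutathione conjugates, was at 106 and 91.8 CPM in control cells, 399 and 354 CPM after LPS, 617 and 675 CPM after AGE+LPS and 715 and 735 CPM after FruArg+LPS. Esd, an esterase that releases glutathione from its formyl adduct, was at 214 and 322 CPM in the control libraries, 1023 and 1359 CPM with LPS, 713 and 1068 CPM with AGE+LPS and 849 and 1229.5 CPM with FruArg+LPS. The AGE+LPS and FruArg+LPS libraries were all above the LPS libraries for Abcc1, whereas for Esd the groups with LPS overlapped. Abcc1 changed by 1.97, 2.73 and 2.90 and Esd by 2.19, 1.75 and 1.98 in LPS, AGE+LPS and FruArg+LPS against control, all called. Esd and Prdx6 have annotated pseudogenes with 53 and 245 counts over all libraries. Reads shared between copies leave these 2 levels uncertain by an amount that was not measured. Osgin1, a growth inhibitor induced by oxidative stress, was within 0.935 to 6.66 CPM, and Ugdh, which makes UDP-glucuronate, within 37.0 to 76.5 CPM. Neither was called, at -0.08 ± 0.60 and 0.46 ± 0.22 (SE) with LPS. The sign for Osgin1, whose counts were as low as 3, depended on the library left out and on the tool.

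Of the enzymes that act on superoxide and hydrogen peroxide directly, Sod2 (chr17:13006846-13040063 on the plus strand), the mitochondrial manganese dismutase, was at 124 and 149.9 CPM in the control, 2046 and 1840.3 CPM in the LPS group, 1386 and 1269 CPM in the AGE+LPS group and 1953 and 2234 CPM in the FruArg+LPS group. Its change by LPS of 3.86 (SE 0.25, adjusted p = 1.6e-05), 14.5-fold, was the highest log2 fold change among the members. Sod2 is also known as a target of NF-kB. Both AGE+LPS libraries were below the 4 others with LPS. Cat, the peroxisomal catalase, was at 119 and 174 CPM in control cells, 331 and 496 CPM after LPS, 413 and 638 CPM after AGE+LPS and 575 and 654 CPM after FruArg+LPS. The control libraries were below all treated ones, and lane 6 exceeded lane 3 in each group. Sod2 rose by 3.29 with AGE+LPS and 3.96 with FruArg+LPS against control. Cat rose by 1.53, 1.86 and 2.09 in LPS, AGE+LPS and FruArg+LPS against control. Sod1, the cytosolic copper and zinc dismutase, was within 69.2 to 109.5 CPM and was not called, at -0.17 ± 0.19 (SE) with LPS.

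AGE+LPS was compared with LPS to see what the extract, given from 1 h before LPS, changed in LPS-exposed cells. Without the replicate block 0 members were called by edgeR, beside 0.796% of the 12317 genes tested, with 7 of the 34 at an unadjusted p below 0.05, beside 17.8% of genes. DESeq2 called 2 members, Nqo1 and Ephx1, and 224 genes up and 327 down in all. With the lane as a block, 2 members were called up, a share near the 4.91% of all genes, and 0 down, beside 4.82%. They were Nqo1, at 1.91 (SE 0.21, adjusted p = 1.7e-13) with the block and 1.90 (SE 0.42, adjusted p = 0.081) without, and Ephx1, at 1.28 (SE 0.18, adjusted p = 1.3e-09) and 1.28 (SE 0.31, adjusted p = 0.099). Their adjusted p over all alternatives ranged from 1.7e-13 to 0.089 and from 1.3e-09 to 0.25. With so few libraries, the SE and p of the block fits rest mostly on variability pooled over all genes. The ratio of levels on the log2 scale was 1.78 in lane 3 and 2.00 in lane 6 for Nqo1, and 1.09 in lane 3 and 1.42 in lane 6 for Ephx1. Leaving out a single library without the block gave between 0 and 3 called members. Nqo1 was called without LPS replicate 1, at 1.60, without LPS replicate 2, at 2.31, and without AGE+LPS replicate 1, at 2.30. Without that last library Ephx1 and Gclm were called too, at 1.57 and 1.17.

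Smaller shifts in both directions were seen within lanes. With the block and no minimum on the fold change, 11 members were higher with AGE+LPS than with LPS, beside 19.3% of genes, and 7 were lower, beside 21% of genes. The share of the list on the lower side was close to that of all genes. Glutathione members went both ways, with Gclm at 0.69 and Gsr at 0.31 higher, and Gss at -0.58 and Gclc at -0.47 lower. In the thioredoxin group Prdx6 and Prdx5 were higher, at 0.58 and 0.28, and Prdx2 and Txn1 lower, at -0.33 and -0.26. Of the pentose phosphate and NADPH group only Tkt passed in this setting, at 0.32. Sod2 was lower, at -0.55, and Sod1 and Cat were higher, at 0.43 and 0.34. Abcc1 and Maff were higher, at 0.78 and 0.34, and Ugdh and Esd lower, at -0.68 and -0.43. The median log2 fold change of the 34 members was 0.08 without the block, and that of all genes tested was -0.000519. Scaling by library size raised the latter by 0.15 and moved the share of up-regulated genes among all called genes from 36.7% to 54.5%.

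FruArg+LPS was compared with LPS for the same purpose, using the single compound. Without the block 0 members were called by edgeR, beside 0% of the 12071 genes tested, with 9 members at an unadjusted p below 0.05, beside 12.8% of genes. DESeq2 called Ephx1 and Gclm, and 99 genes up and 103 down in all. With the block 2 members were called up, beside 2.87% of genes, and 0 down, beside 3.48%. They were Ephx1, at 1.80 (SE 0.26, adjusted p = 2.1e-07) with the block and 1.80 (SE 0.29, adjusted p = 0.17) without, and Gclm, at 1.13 (SE 0.18, adjusted p = 1.5e-06) and 1.09 (SE 0.27, adjusted p = 0.21). Their adjusted p over all alternatives ranged from 2.1e-07 to 0.18 and from 1.5e-06 to 0.34. Within lanes the log2 ratio was 1.95 in lane 3 and 1.66 in lane 6 for Ephx1, and 1.40 in lane 3 and 0.85 in lane 6 for Gclm. Without FruArg+LPS replicate 1 Ephx1 was called, at 1.81. Without FruArg+LPS replicate 2 Ephx1, Gclm and Prdx6 were called, at 1.78, 1.05 and 1.03.

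Here the smaller shifts that passed had one direction. With the block and no minimum on the fold change, 12 members were higher with FruArg+LPS than with LPS, beside 8.23% of genes, and 0 were lower, beside 9.36% of genes. Besides Ephx1 and Gclm they were Slc7a11 at 0.66, Prdx6 at 0.93, Prdx5 at 0.90, Prdx1 at 0.87 and Srxn1 at 0.66. The remaining ones were Abcc1 at 0.96, Maff at 0.66, Cat at 0.60, Pgd at 0.57 and Tkt at 0.51. By role this made 2 of 7 glutathione, 4 of 7 thioredoxin and peroxiredoxin, and 2 of 5 pentose phosphate and NADPH members. The median log2 fold change without the block was 0.47 over the 34 members and -0.0123 over all genes tested. By role it was 0.42 for glutathione, 0.66 for thioredoxin and peroxiredoxin, and 0.42 for pentose phosphate and NADPH members. Within both lanes 24 members were higher and 5 were lower with FruArg+LPS, beside 34.3% and 36.1% of the genes tested. Both co-treatments were set against the same 2 LPS libraries.

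**Figure D3:**
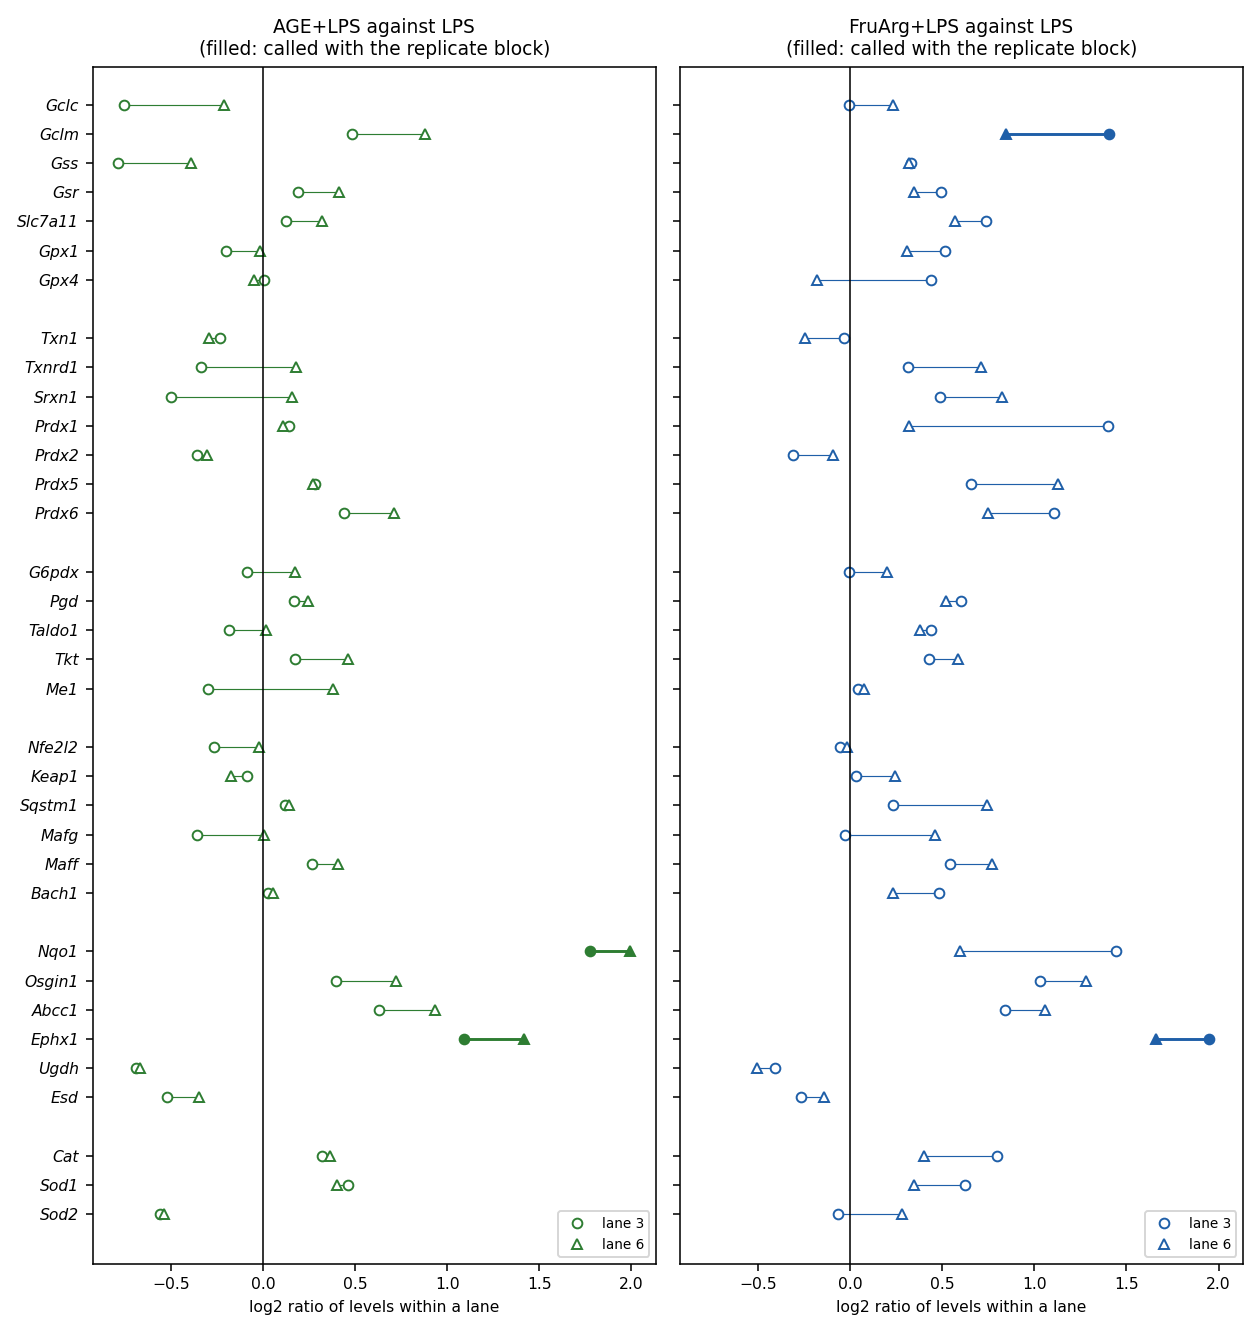
Log2 ratio of levels within a lane (horizontal axis) for the 34 members, AGE+LPS over LPS on the left and FruArg+LPS over LPS on the right, with circles for lane 3, triangles for lane 6 and filled symbols for genes called with the replicate block. Nqo1 and Ephx1 are called up with AGE+LPS, beside 4.91% of genes, and Gclm and Ephx1 with FruArg+LPS, beside 2.87%. With FruArg+LPS 24 of 34 members lie above 0 in both lanes, beside 34.3% of the genes tested.

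FruArg+LPS was also set against AGE+LPS directly. The extract and the compound were given at doses in different units, so the values compare these 2 treatments and not equal doses. Without the block 0 members were called by edgeR, beside 0% of the 11915 genes tested, with 7 members at an unadjusted p below 0.05, beside 5.61% of genes, and DESeq2 called 0 genes. With the block 0 members were called, beside 0.546% of genes up and 0.352% down. With the block and no fold minimum 2 members were higher with FruArg+LPS, beside 2.23% of genes, and 0 lower, beside 0.965%. They were Gss, at 0.91 (SE 0.18, adjusted p = 0.0091), and Srxn1, at 0.82 (SE 0.19, adjusted p = 0.024), with adjusted p over the alternatives of 0.0091 to 1 and 0.024 to 1. Without the block the log2 fold change of Gss was 0.90, with a 95% interval of 0.33 to 1.47, and that of Srxn1 0.80, with an interval of 0.20 to 1.41. Of the members called in a co-treatment against LPS, Nqo1 was lower with FruArg+LPS, at -0.94 ± 0.39 (SE) with an interval of -1.81 to -0.08 and an adjusted p of 0.84, so a difference for Nqo1 between the treatments was not established. For Gclm and Ephx1 the intervals without the block were -0.35 to 1.05 and -0.16 to 1.18, which leave room for differences in either direction. With the block the interval for Gclm was 0.031 to 0.84, above 0, but its adjusted p was 0.23 (edgeR), so Gclm did not pass. Without AGE+LPS replicate 1, in the fit without the block, the sign for Gclm turned, to -0.08. The median log2 fold change of the 34 members was 0.32, and that of all genes tested was -0.0151, which fell by 0.14 under scaling by library size. Under that scaling the median of the members was 0.192. Within both lanes 28 members were higher and 1 was lower with FruArg+LPS, beside 31.6% and 32.1% of the genes tested, and with libraries scaled by size alone, an alternative added after seeing the data, 18 were higher and 2 lower, beside 21.1% and 44.6%.

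Other genes of the same pathways moved both ways. Of 82 companion genes, which share only Nos2 with the LPS check genes, 70 were tested in LPS against control. There 14 were called up and 12 down, beside 11.5% and 11.1% of all genes tested, with a median log2 fold change of 0.30. Scaling by library size gave 7 up and 17 down, beside 932 and 2666 of the 12888 genes tested. The median was then -0.12, beside -0.402 over all genes tested. Among 12 tested glutathione companions 2 were up and 3 down under the main TMM scaling. Slc3a2, the heavy chain that partners Slc7a11, rose by 1.57, and Ggct, which acts in glutathione breakdown, by 1.17. Ggct lost its call without control replicate 2, at 1.07, without LPS replicate 2, at 0.99, and under scaling by library size, at 0.75. Glo1, the glutathione-dependent glyoxalase, changed by -1.95 (SE 0.31, adjusted p = 0.0014) and the mitochondrial glutaredoxin Glrx2 by -1.17 (SE 0.27, adjusted p = 0.01), with Glrx2 not called without control replicate 1, at -1.02. The other gene called down was Hagh, the hydrolase after Glo1, named after its values were seen. With AGE+LPS against LPS, edgeR called Glo1 up with the block, at 1.57 (SE 0.21, adjusted p = 4.1e-10), and not without it, at 1.55 (SE 0.31, adjusted p = 0.066). Adjusted p over the alternatives ranged from 4.1e-10 to 0.12. Glo1 was also called up by DESeq2, which had no block. Without the block it was called when LPS replicate 1, AGE+LPS replicate 1 or AGE+LPS replicate 2 was left out, at 1.87, 1.59 and 1.51. Oplah, which opens oxoproline to glutamate, was the other glutathione companion called with the block in that comparison, down, at -1.11 (SE 0.24, adjusted p = 8.8e-05), and not without it, at -1.11 (SE 0.44, adjusted p = 0.26), with adjusted p over the alternatives of 8.8e-05 to 0.62.

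Of 12 tested thioredoxin and peroxiredoxin companions edgeR and DESeq2 each called 0 up and 3 down in LPS against control, beside 11.5% and 11.1% of genes, and 7 had an unadjusted p below 0.05, beside 41.4% of the genes tested. Sesn1, a sestrin, was at 105 and 101 CPM in the control libraries, 8.39 and 10.2 CPM with LPS, 13.6 and 18.2 CPM with AGE+LPS and 15.4 and 8.76 CPM with FruArg+LPS. Its log2 fold change was -3.42 (SE 0.23, adjusted p = 2.1e-05). Both controls were far above the 6 other libraries. The mitochondrial peroxiredoxin Prdx3 changed by -1.26 and the methionine sulfoxide reductase Msrb2 by -1.14, both called down. Msrb2 was not called without control replicate 2, at -1.05, or without LPS replicate 1, at -0.90.

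Among 14 tested pentose phosphate and NADPH companions 4 were called down with LPS, beside 11.1% of genes, and the other 10 were not called. Scaling by library size gave 8 called down, beside 2666 of the 12888 genes tested. Under the main TMM scaling the median log2 fold change of all 14 was -0.655. Prps1 and Prps2, which turn ribose 5-phosphate into the precursor of nucleotides, changed by -1.13 and -2.14, and Mthfd1, a folate enzyme that can make NADPH, by -1.71, all called. Prps1 was not called without control replicate 2, at -0.82. The remaining one was Idh2, the mitochondrial NADP-dependent isocitrate dehydrogenase, named after its values were seen, which was lost without control replicate 1, at -0.93, and without LPS replicate 2, at -0.89. Shpk, the sedoheptulose kinase, was called with the block, at -1.34 (SE 0.55, adjusted p = 0.043), and under scaling by library size, at -1.77, but not otherwise, at -1.35 (SE 0.51, adjusted p = 0.074), with adjusted p over the alternatives of 0.023 to 0.33. With FruArg+LPS against LPS, Prps1 was called down with the block, at -1.20 (SE 0.34, adjusted p = 0.0088), and not without it, at -1.18 (SE 0.41, adjusted p = 0.31), with adjusted p over the alternatives of 0.0074 to 0.98. It was also called without FruArg+LPS replicate 2, at -1.69. H6pd, which makes NADPH in the endoplasmic reticulum, was called up there with the block, at 1.06 (SE 0.19, adjusted p = 2.1e-05), and not without it, at 1.07 (SE 0.33, adjusted p = 0.27), with adjusted p over the alternatives of 2.1e-05 to 0.91, and it passed without FruArg+LPS replicate 2, at 1.38.

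Among 6 tested regulators outside the list, Mafk and Nfe2l1 were called up with LPS, beside 11.5% of genes. Mafk, another small Maf, was at 54.3 and 44.7 CPM in the control, 303 and 213 CPM in the LPS group, 106 and 77.3 CPM in the AGE+LPS group and 131 and 163 CPM in the FruArg+LPS group. It was below the LPS level in all 4 co-treated libraries. In AGE+LPS against LPS, edgeR called Mafk down with the block, at -1.49 (SE 0.10, adjusted p = 3.8e-25), and not without it, at -1.49 (SE 0.27, adjusted p = 0.06). Adjusted p over the alternatives ranged from 3.8e-25 to 0.068. Mafk was also called down by DESeq2, which had no block. Leaving out a library without the block made it pass in each case, at -1.21 and -1.72 without an LPS library and -1.73 and -1.28 without an AGE+LPS library. Nfe2l1, a relative of Nrf2, rose by 1.32 with LPS, a call lost under scaling by library size, at 0.90. In AGE+LPS against control Nfe2l1 was called at 1.00 (SE 0.20, adjusted p = 0.007), just past the fold minimum, and not with the block, at 0.998 (SE 0.14, adjusted p = 2.6e-07), just under it, with adjusted p over the alternatives of 2.6e-07 to 0.1. That call was also lost without control replicate 1 or 2 or AGE+LPS replicate 1, at 1.04, 0.97 and 0.88, with all 8 libraries in 1 fit, at 0.99, and under scaling by library size, at 0.76.

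Of 18 tested companions among the other Nrf2 targets, 6 were up and 2 down with LPS, beside 11.5% and 11.1% of genes, 9 up and 2 down with AGE+LPS, beside 7.64% and 7.41%, and 12 up and 1 down with FruArg+LPS, beside 9.59% and 7.84%, each against control. Hmox1, the inducible heme oxygenase, was at 140.3 and 188 CPM in control cells, 762 and 675 CPM after LPS, 598 and 897 CPM after AGE+LPS and 1463 and 1925 CPM after FruArg+LPS. Both FruArg+LPS libraries exceeded all others. Slc48a1, a heme transporter, was at 72.3 and 87.3 CPM in the control libraries, 110.1 and 109 CPM with LPS, 231 and 263 CPM with AGE+LPS and 523 and 323 CPM with FruArg+LPS. Both LPS libraries were above both controls for Slc48a1, and all 4 co-treated libraries were higher still. In LPS against control Slc48a1 was not called, but it passed up with the block and no fold minimum. With the block, 7 of these 18 genes were called up in FruArg+LPS against LPS, beside 2.87% of genes, and 2 in AGE+LPS against LPS, beside 4.91%. Without it, under the main TMM scaling and count filter, edgeR called 0 in either, beside 0% and 0.796% of genes. An unadjusted p below 0.05 was found for 9 and 5, beside 12.8% and 17.8% of genes. DESeq2 called 7 and 2 up, beside 99 of 12071 and 224 of 12317 genes. For FruArg+LPS against LPS, Hmox1 changed by 1.23 (SE 0.20, adjusted p = 4.7e-06) with the block and 1.24 (SE 0.26, adjusted p = 0.19) without, and Slc48a1 by 1.92 (SE 0.19, adjusted p = 1e-12) and 1.96 (SE 0.29, adjusted p = 0.16). Adjusted p over the alternatives ranged from 4.7e-06 to 0.27 and from 1e-12 to 0.17. Without the block, Hmox1 was called when FruArg+LPS replicate 1 was left out, at 1.42. Slc48a1 was called without LPS replicate 2, at 1.96, and without either FruArg+LPS library, at 1.56 and 2.26. In this comparison 3 more genes were called by edgeR with the block and not without it, and by DESeq2, which had no block. Ptgr1, which reduces alkenals and prostaglandins, was at 1.02 (SE 0.18, adjusted p = 1.4e-05) with the block and 1.01 (SE 0.26, adjusted p = 0.23) without. Gsta3, a glutathione transferase, was at 1.72 (SE 0.28, adjusted p = 3.1e-06) and 1.67 (SE 0.38, adjusted p = 0.21). The ferritin chain Ftl1 was at 1.48 (SE 0.19, adjusted p = 1.3e-08) and 1.53 (SE 0.33, adjusted p = 0.2). Adjusted p over the alternatives of these 3 ranged from 1.4e-05 to 0.38, 3.1e-06 to 0.27 and 1.3e-08 to 0.32. Without the block Gsta3 was called when LPS replicate 2 or either FruArg+LPS library was left out, at 2.25, 1.79 and 1.51, and Ftl1 without FruArg+LPS replicate 2, at 1.88. In AGE+LPS against LPS the genes called with the block were Slc48a1, at 1.18 (SE 0.10, adjusted p = 3.5e-19), with adjusted p over the alternatives of 3.5e-19 to 0.083, and Gsta3. Without the block Slc48a1 also passed there without AGE+LPS replicate 1, at 1.27, under scaling by library size, at 1.32, with all 8 libraries in 1 fit, at 1.17, and with at least 1 count, at 1.17. Gsta3 passed without LPS replicate 2 or AGE+LPS replicate 1, at 1.93 and 1.67, and with at least 1 count, at 1.34. Blvrb, a flavin and biliverdin reductase, rose by 2.20 with LPS, and Ptgr1 by 1.92. In FruArg+LPS against AGE+LPS the block called Hmox1, at 1.19 (SE 0.18, adjusted p = 0.0019), and Ftl1, at 1.08 (SE 0.17, adjusted p = 0.0024), up and Prps1, at -1.26 (SE 0.34, adjusted p = 0.045), down. Without the block the values were 1.18, 1.10 and -1.23, none called, with adjusted p over the alternatives of 0.0019 to 0.82, 0.0024 to 1 and 0.026 to 1. The 2 genes down with LPS were Blvra, lost without control replicate 2, at -0.95, and Cbr1, lost without control replicate 1 or 2 or LPS replicate 2, at -1.07, -1.05 and -0.76. Those 2, Gsta3 and Ftl1 were named after their values were seen.

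Enzymes that spend NADPH on superoxide and nitric oxide were listed too. Of 8 genes, 4 were up with LPS against control, beside 11.5% of genes, among them Nos2 by 9.54, Cybb, the catalytic subunit of the phagocyte NADPH oxidase, by 2.33, and its cytosolic partner Ncf4 by 1.24. Scaling by library size took the call of Ncf4, at 0.83. Nos2 fell in AGE+LPS against LPS, at -2.61 (SE 0.21, adjusted p = 0.036). In FruArg+LPS against LPS, edgeR called Nos2 down with the block, at -1.83 (SE 0.20, adjusted p = 7.7e-11), and not without it, at -1.73 (SE 0.36, adjusted p = 0.19). Adjusted p over the alternatives ranged there from 7.7e-11 to 0.2. Nos2 was also called down there by DESeq2, which had no block. Without the block it was called when LPS replicate 2 or FruArg+LPS replicate 2 was left out, at -1.68 and -2.42.

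The other LPS check genes did not all follow Nos2. Il1b, which encodes the cytokine IL-1 beta, was at 1.56 and 2.44 CPM in the control, 573 and 577 CPM in the LPS group, 1743 and 1595 CPM in the AGE+LPS group and 1052 and 1807 CPM in the FruArg+LPS group. All 4 co-treated libraries were above both LPS libraries. Il1b rose in AGE+LPS against LPS, at 1.54 (SE 0.21, adjusted p = 0.041). In FruArg+LPS against LPS, edgeR called Il1b up with the block, at 1.27 (SE 0.20, adjusted p = 2.4e-06), and not without it, at 1.32 (SE 0.30, adjusted p = 0.21). Adjusted p over the alternatives ranged there from 2.4e-06 to 0.25. Il1b was also called up there by DESeq2, which had no block. It was called there without FruArg+LPS replicate 1, at 1.65. Tnf, the tumor necrosis factor gene, was at 17.1 and 34.9 CPM in the control libraries, 315 and 373 CPM with LPS, 395 and 444 CPM with AGE+LPS and 567 and 588 CPM with FruArg+LPS, higher in all 4 co-treated libraries than with LPS, and was not called in either co-treatment against LPS. The chemokine gene Cxcl10 went the other way. With the block edgeR called it down, at -1.61 (SE 0.11, adjusted p = 4.1e-24) with AGE+LPS and -1.59 (SE 0.19, adjusted p = 5.5e-10) with FruArg+LPS. Without the block edgeR did not call it, at -1.63 (SE 0.29, adjusted p = 0.058) and -1.57 (SE 0.34, adjusted p = 0.2). Cxcl10 was called down in both comparisons by DESeq2, which had no block. Its adjusted p over the alternatives ranged from 4.1e-24 to 0.065 and from 5.5e-10 to 0.23. Cxcl10 passed without the block when any 1 library was left out with AGE+LPS, at -1.91 and -1.27 without an LPS library and -1.85 and -1.43 without an AGE+LPS library, and with FruArg+LPS without its replicate 2, at -2.04. Il6 and Ptgs2 were not called in either comparison. Il1b, Tnf and Cxcl10 were named after their values were seen.

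Promoters were searched because many members moved together. RefSeq windows of GRCm38.p6 were found for 30 of the 34 members, with none for Prdx6, Gclc, Gsr and Abcc1. The core of the antioxidant response element, TGACNNNGC, was looked for on both strands of the 250 bases before each start. It was present for 9 members: G6pdx, Gclm, Maff, Mafg, Nfe2l2, Prdx1, Sod1, Txnrd1 and Ugdh. Of all 32851 promoter windows, 10.2% held it, against 9 of the 39 windows of members (23.1%), and of all 27025 genes with a window 11.5% held it. One fixed form of the core, TGACTCAGC, was present in 0.39% of all windows and for 1 member, Prdx1. A match is a stretch of letters and not a shown binding site, and windows without a match can have elements farther away. Sod2, Slc7a11 and Srxn1, the 3 members with the highest log2 fold change in LPS against control, had none in their windows. Of the 9 members with a match, those of the 6 with the highest absolute log2 fold change in that comparison are shown, from 2.84 for Maff to 0.97 for G6pdx, which was not called, on the strand of the gene and with the match in capitals.
Maff: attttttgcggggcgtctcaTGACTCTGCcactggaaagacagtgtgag
Txnrd1: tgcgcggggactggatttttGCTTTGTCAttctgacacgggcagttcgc
Prdx1: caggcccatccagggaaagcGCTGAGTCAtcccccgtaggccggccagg
Gclm: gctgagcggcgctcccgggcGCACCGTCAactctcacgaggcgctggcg
Mafg: ctctgcaggaGCACGGTCAacccggcgag
G6pdx: aggcgggtcaGCTCAGTCAaagcacacgc

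The Maff window was chr15:79346489-79346537 (plus strand), with its match 112 to 104 bases before the start, outside annotated transcripts. For Txnrd1 it was chr10:82859094-82859142 (plus strand), with the match from 92 to 84 bases before the start, in an annotated intron. The Prdx1 stretch was chr4:116685446-116685494 (plus strand), with the match from 133 to 125 bases before the start, outside annotated transcripts. For Gclm the stretch was chr3:122245403-122245451 (plus strand), with the match from 134 to 126 bases before the start, outside annotated transcripts. The shorter Mafg stretch was chr11:120633751-120633779 (minus strand), with the match from 222 to 214 bases before the start, overlapping an annotated exon. That of G6pdx was chrX:74428919-74428947 (minus strand), with the match from 57 to 49 bases before the start, overlapping an annotated exon.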

How the data were processed

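The authors prepared mRNA libraries from the 8 cultures, clipped adaptors, trimmed reads with FASTX, aligned them with TopHat2 to GRCm38 (Ensembl) and counted them per gene with featureCounts, and the deposited values are raw counts. Tool versions, annotation release, strand setting and treatment of multimapping reads are not given in the sources used here. The labels name RNeasy for extraction and the methods of the study TRIzol. Gene names and positions came from GENCODE M21, which matched 45229 of 46078 genes.

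Each pair of groups was compared on the counts of its 4 libraries with edgeR 4.0.16 in R 4.3.3 (filterByExpr, TMM, quasi-likelihood F-test, Benjamini-Hochberg adjustment over all genes tested). Calls needed a 2-fold change in either direction (log2 of 1) together with an adjusted p under 0.05. DESeq2 1.42.0 was the second tool. Both were tested on simulated counts with set changes: edgeR without a block missed them once a lane difference was added, while edgeR with the block and DESeq2 found most or all. The set changes were larger than the fold minimum, so changes near it were not tested. How many unchanged genes each fit called is not reported here. Tables and figures were made with Python 3.11.15, pandas 2.3.3 and matplotlib 3.10.9. Replicates are called biological in the series' text. Within groups they differed beyond counting noise (chi-square per degree of freedom 11.9 to 41.3).

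By the sample labels the first replicates shared lane 3 and the second ones lane 6, so the number pairs the samples. Deviations of same-numbered samples from their group means were correlated across genes (Pearson r 0.244 to 0.628, genes not being independent). The fit with the number as a block was an alternative. It leaves almost no replicate spread of a gene's own, so very small p in it are no measure of that spread. The block without a fold minimum was chosen after seeing the data. Members and gene lists were chosen with earlier results of these data known. Values per library are given for members called in any comparison, with or without the block, and for 12 members whatever their result. Companions are named where called in LPS against control or in a co-treatment against LPS, at most 4 per list by absolute log2 fold change, plus Hmox1 and Nos2. Some genes of these lists are not reported here.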

Additional observations from a re-analysis of the deposited data

How the results depend on the processing

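Counts of called members against control ranged from 17 to 23 with LPS, 15 to 21 with AGE+LPS and 19 to 24 with FruArg+LPS, other than with the block and no fold minimum, where they were 29, 26 and 26. In AGE+LPS against LPS, 0 members were called by edgeR without a block, and 2 with the replicate block, 2 with all 8 libraries in 1 fit, 2 in that fit with the block, 2 with DESeq2, 2 when genes with at least 1 count were kept, and 18 with the block and no fold minimum. In FruArg+LPS against LPS the count of 0 became 2 with the replicate block, 3 with all 8 libraries and the block, 2 with DESeq2, 2 with at least 1 count and 12 with the block and no fold minimum. In FruArg+LPS against AGE+LPS it became 2 with the block and no fold minimum. Of all genes, 19.3% passed up and 21% down in that setting in AGE+LPS against LPS. The shares were 8.23% and 9.36% in FruArg+LPS against LPS, and 2.23% and 0.965% in FruArg+LPS against AGE+LPS. The cause of the moves in member counts was not tested. Leaving out 1 library gave 0 to 3 members in AGE+LPS against LPS, 0 to 3 in FruArg+LPS against LPS and 0 in FruArg+LPS against AGE+LPS. It leaves a group with 1 sample, which is then assumed to vary like the other group.

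Signs turned for Prdx2 with LPS under library size scaling (-0.29) and for Osgin1 with DESeq2 (0.0201). Leaving out 1 library, values with LPS ranged from -0.19 to 0.0918 for Tkt and from -0.60 to 1.52 for Osgin1, which has as few as 3 counts. Ephx1 in FruArg+LPS against control lay near 0: -0.0218 with all 8 libraries, -0.0013 with the block added, -0.0034 with RLE size factors, -0.40 with library size scaling, -0.0024 with DESeq2, -0.0568 with at least 1 count and -0.0299 with at least 10 counts in every library. Leaving out 1 library it ranged from -0.18 to 0.20. Gclm in FruArg+LPS against AGE+LPS then ranged from -0.0750 to 0.95. None of these was called. A minimum of 10 counts in every library dropped Nqo1, Osgin1, Shpk, Nos2, Il1b and Il6 against control. The block changed no call of a named gene other than those given with it. The promoter count of 9 members became 1 with the single form of the core, which has fewer letters free.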
